A study of Mus musculus with 20 samples.

Results

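The genes described are 10 mouse genes for chaperone-like and chromatin proteins that carry long runs of glutamate and aspartate. They comprise the Anp32 family (Anp32a, Anp32b and Anp32e), Set, Ptma, Ncl, Npm1, Hmgb1, Hmgb2 and Nap1l1. They were 10 of the 53028 genes in the count table, were picked by symbol, and all 10 passed the low-count filter in every fit. The group was put together after Anp32b and Set stood out in polysome RNA, so the comparison of the LNAs in polysome RNA, and what rests on its SNORA73 LNA libraries, is given as a description with no test.

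The livers came from ad libitum-fed male C57BL/6J mice aged 10 weeks. For 1 week, in 3 injections, they received locked nucleic acid (LNA) oligomers, short modified antisense strands, against SNORA73 or, as the control, against GFP, a sequence the mice lack. For knockdown in chow-fed mice the methods give a dose of 3 mg/kg and an age of 8 weeks at injection. SNORA73 is a box H/ACA snoRNA made from introns of Snhg3, and the labels write the target as Snora37kd where the study writes SNORA73. Each group had 5 mice (GFP LNA mice 1, 2, 3, 8 and 9, SNORA73 LNA mice 4, 6, 10, 11 and 12), and each mouse gave 1 library of total RNA and 1 of polysome RNA, the RNA recovered from sucrose gradient fractions after cycloheximide had been injected to hold ribosomes on mRNA. Both groups therefore had cycloheximide. Of its SNORA73 LNAs, the study names the more potent one for its further work in mice.

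Libraries held 14852951 to 42023390 estimated counts, and the polysome libraries of SNORA73 LNA mice were the shallowest group (14852951 to 24905687). Every member had at least 138 counts in every library. The snoRNA itself could not be checked in these polyadenylated libraries, in which Snora73a had at most 2 and Snora73b at most 4 counts, while the host transcript Snhg3 had 37 to 201 counts. Levels are CPM, counts scaled to library size, after TMM normalization within total or within polysome RNA. TMM factors did not overlap between the LNA groups in total RNA (1.03 to 1.07 with GFP LNA, 0.882 to 0.998 with SNORA73 LNA), and scaling by library totals alone put the median over all genes of the log2 fold change at -0.14 in total RNA and at -0.17 in polysome RNA. Fold changes below are relative to the TMM scale. The study left out 1 mouse per group without naming it, and values without mice 9 and 10 are given as a second set.

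Acidic tails bind the basic surfaces of histones, and most of these proteins act as histone chaperones, inhibitors of protein phosphatase 2A (PP2A) or nucleolar assembly factors. Anp32a and Set belong to complexes that bind histones and block their acetylation, and both inhibit PP2A. mRNAs of Npm1 and Nap1l1 are known members of the 5′ terminal oligopyrimidine (TOP) class, which starts with a C followed by a run of pyrimidines and whose loading onto ribosomes follows mTOR activity.

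Start sequences are shown because a TOP start bears on polysome loading. RefSeq windows on GRCm38.p6 were found for 9 of the 10 members, with 11 starts in all, and Npm1 had no entry. Each run has 15 bases before the annotated start in lower case and the first 15 transcribed bases in capitals, read on the gene's own strand.
Anp32a (chr9:62341328-62341357, plus strand): aggtcccgcctctacGGCGATCAGGTTAGT
Anp32b (chr4:46450911-46450940, plus strand): ccccgccctccgtgcGCCTCCCAAGTCCGC
Anp32e (chr3:95929242-95929271, plus strand): ggtggagtgtaggctAGGGGGGGTTGGCGG
Ncl (chr1:86359441-86359470, minus strand): ggctccggggacggaCGCGAGCTCTGGTTG
Nap1l1 (chr10:111473212-111473241, plus strand): ggcgggctctcgggtCTTTTTTAGCGCCAT

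The search was for a C at the annotated first base followed by 4 bases that are each C or T, on the transcribed strand only. Nap1l1 was the single match, 1 of 11 member starts, against 2.51% of 32851 starts in the table. Its window lies inside the gene, whose span begins at chr10:111472882, and the letters at that outer position were not searched. None of the 3 Anp32 starts matched, so these letters were not at the annotated first base of the genes with the largest polysome differences. An annotated first base can be off by a few positions, and a match or its absence is a description of the letters alone.

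The first question was whether SNORA73 LNA changed the abundance of these transcripts in the liver. No member passed the test in total RNA. Of 13195 genes tested, 4 were called by edgeR at an FDR under 0.05 (0.0303%), and 1141 had an unadjusted p under 0.05, among them 3 members. Without mice 9 and 10 again no member was called, with 97 of 13017 genes called (0.745%). The members' median log2 fold change was 0.29, beside 0.01 over all genes, and 9 of 10 members lay above 0, as did 51.7% of all genes. Without mouse 11 the members' median was 0.17 with 7 above 0, beside 49.9% of all genes above 0. With library totals the members' median was 0.14 with 6 above 0. On that scale the median over all genes was -0.14, and 23.1% of them lay above 0. There 9 members lay above the median of all genes, as in the main fit. DESeq2 and limma-voom also called none of the 10. The total RNA came from the same livers as the polysome libraries behind the choice of genes, so these values are not independent of it. Anp32b and Set are among the 10, and the counts of members above 0 carry no weight as evidence about the group. Since whole liver was sequenced, a change in the share of a cell type and a change in RNA per cell cannot be told apart.

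Anp32b (ENSMUSG00000028333, chr4:46450926-46472657), a histone chaperone of the nucleus, is the member with the largest fold change in polysome RNA. Its total RNA level was 89.3, 91.3, 92.3, 109 and 126 CPM in GFP LNA mice 1, 2, 3, 8 and 9, and 141, 112, 148, 186 and 108 CPM in SNORA73 LNA mice 4, 6, 10, 11 and 12. The groups overlapped, with mice 6 and 12 inside the control range. The log2 fold change was 0.45 (SE 0.16, adjusted p = 0.43), and 0.52 without mice 9 and 10 (SE 0.16, adjusted p = 0.23).

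In polysome RNA Anp32b stood at 129, 96.7, 106, 89.8 and 132 CPM in the same GFP LNA mice, and at 295, 250, 342, 685 and 339 CPM in the SNORA73 LNA mice. Every SNORA73 LNA library lay above every control library, and mouse 11 stood far above the other 4. The means were 111 ± 18.9 and 382 ± 173 CPM (SD, n = 5 each), the log2 fold change was 1.79 (SE 0.25), and it was 1.49 without mouse 11 and 1.90 without mice 9 and 10.

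Anp32a (ENSMUSG00000032249, chr9:62341343-62378804), which inhibits PP2A and binds histones, showed the next largest polysome value. Its total RNA level was 194, 217, 177, 250 and 235 CPM with GFP LNA and 314, 250, 198, 356 and 310 CPM with SNORA73 LNA, in the mouse order used for Anp32b. The log2 fold change there was 0.41 (SE 0.16, adjusted p = 0.49). Mouse 10 lay within the control range, and without mice 9 and 10 the lowest SNORA73 LNA mouse was just above the highest control mouse (4.23% of genes were higher without overlap there, and 3.17% lower, Npm1 among them), with a log2 fold change of 0.56 (SE 0.13, adjusted p = 0.11). In polysome RNA Anp32a measured 282, 244, 214, 222 and 250 CPM with GFP LNA, and 591, 588, 352, 1047 and 628 CPM with SNORA73 LNA. Groups did not overlap, mouse 10 was the lowest treated and mouse 11 the highest, and the log2 fold change was 1.40 (SE 0.23), or 1.17 without mouse 11.

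Anp32e (ENSMUSG00000015749, chr3:95929245-95947387), a chaperone that removes the histone variant H2A.Z from nucleosomes, followed at a lower count. Total RNA levels ran from 24.0 to 34.1 CPM with GFP LNA and from 26.8 to 41.4 CPM with SNORA73 LNA, and the log2 fold change was 0.30 (SE 0.14, adjusted p = 0.59). Polysome levels were 38.5, 24.2, 30.2, 35.6 and 35.0 CPM with GFP LNA, against 56.3, 55.0, 78.8, 139 and 73.8 CPM with SNORA73 LNA. The SNORA73 LNA libraries were again all higher, with a log2 fold change of 1.30 (SE 0.24) that was 1.03 without mouse 11.

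**Figure D1:**
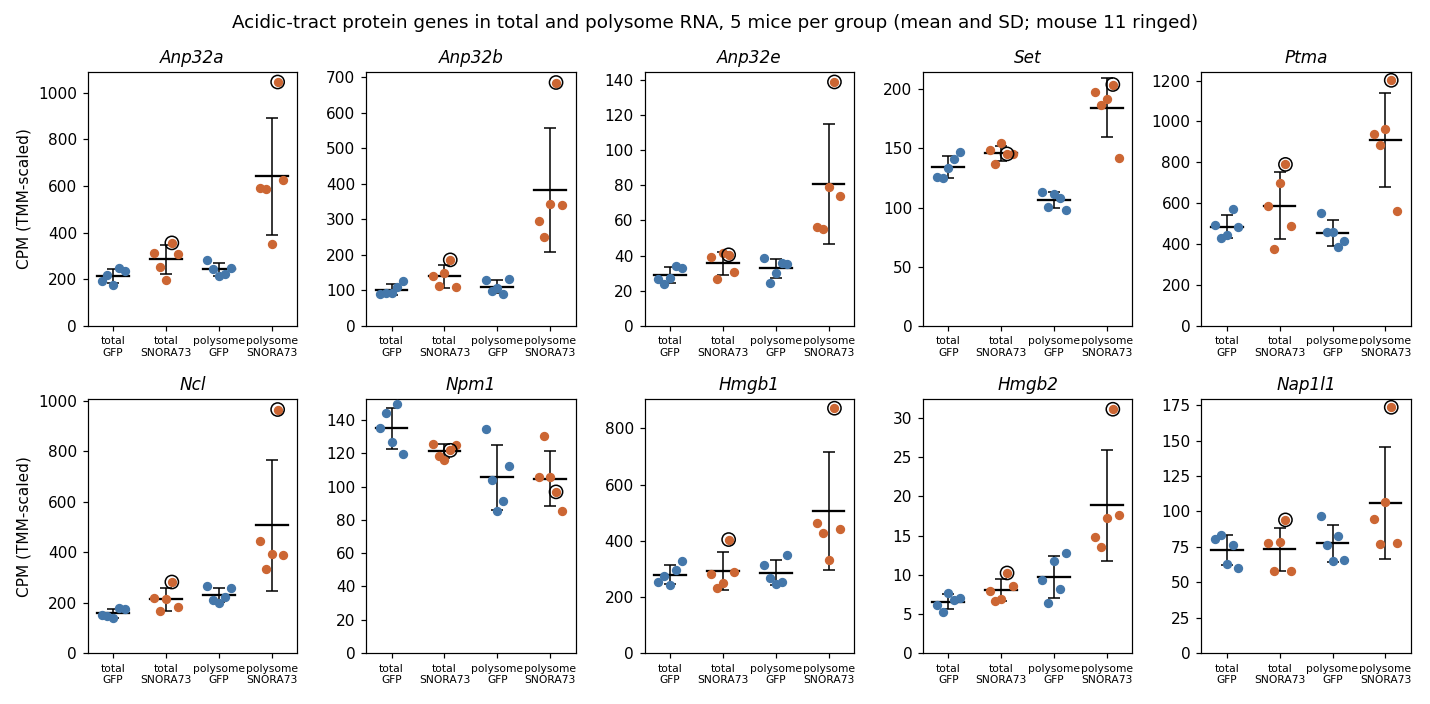
CPM of the 10 members (y axis, from 0, a scale for each gene) in the 4 groups of 5 mice (x axis). Points are libraries, lines and bars the mean and SD, and mouse 11 is ringed. For 7 members, all but Npm1, Hmgb1 and Nap1l1, the polysome points of the SNORA73 LNA group lie above all polysome control points, while the total RNA groups overlap in every panel.

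Set (ENSMUSG00000054766, chr2:30061996-30072577), a histone chaperone and PP2A inhibitor, shares complexes with Anp32a. In total RNA it stood at 125 to 147 CPM with GFP LNA and at 137 to 154 CPM with SNORA73 LNA. The log2 fold change of 0.12 (SE 0.08, adjusted p = 0.75) was -0.03 with library totals. On that scale the median over all genes was -0.14, and Set lay above the median of all genes on both scales. In polysome RNA Set measured 113, 101, 111, 108 and 98.2 CPM with GFP LNA and 198, 187, 192, 204 and 142 CPM with SNORA73 LNA. All 5 treated libraries were higher, mouse 12 was the lowest of them, and mouse 11 did not stand apart. The log2 fold change was 0.79 (SE 0.13), and 0.77 without mouse 11.

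Ptma (ENSMUSG00000026238, chr1:86526557-86530712) encodes prothymosin alpha, a small, disordered and very acidic nuclear protein that binds linker histone H1. Total RNA ranged from 430 to 573 CPM with GFP LNA and from 374 to 790 CPM with SNORA73 LNA, and the fold change (log2) was 0.28 (SE 0.18, adjusted p = 0.73), or 0.14 without mouse 11. In polysome RNA the values were 552, 458, 459, 387 and 416 CPM with GFP LNA and 938, 885, 961, 1201 and 560 CPM with SNORA73 LNA. Mouse 12, the lowest treated mouse, was only just above control mouse 1. The log2 fold change was 1.0 (SE 0.18).

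The nucleolar pair behaved unlike each other. Ncl (ENSMUSG00000026234, chr1:86344719-86359455) encodes nucleolin, which acts in rRNA transcription and early processing, and its total RNA level was 139 to 179 CPM with GFP LNA and 166 to 281 CPM with SNORA73 LNA (log2 fold change 0.43, SE 0.14, adjusted p = 0.41). In polysome RNA Ncl measured 264, 209, 200, 223 and 258 CPM with GFP LNA and 444, 334, 394, 964 and 388 CPM with SNORA73 LNA. Mouse 11 carried much of this value, since the log2 fold change was 1.13 (SE 0.26) with it and 0.77 without it.

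Npm1 (ENSMUSG00000057113, chr11:33152498-33164142) encodes nucleophosmin, a histone and ribosomal protein chaperone of the nucleolus. Its polysome level was 135, 104, 85.6, 91.0 and 112 CPM with GFP LNA and 106, 130, 106, 96.8 and 85.5 CPM with SNORA73 LNA. These ranges covered nearly the same span, and the log2 fold change was -0.01 (SE 0.15). In total RNA Npm1 was the single member below 0, at -0.15 (SE 0.09, adjusted p = 0.69). For Npm1, mouse 6 and not mouse 11 had the highest polysome level of the SNORA73 LNA group, whereas mouse 11 was highest for each of the other 9 members. In total RNA, too, mouse 11 was the highest of that group for 7 members. The share of all genes with mouse 11 highest was not computed.

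Hmgb1 and Hmgb2 encode abundant DNA-bending proteins with an acidic tail. Hmgb1 (ENSMUSG00000066551, chr5:149046702-149053057) measured 313, 268, 246, 253 and 350 CPM in polysome RNA with GFP LNA and 464, 426, 331, 872 and 443 CPM with SNORA73 LNA. Mouse 10 fell within the control range, so these groups overlapped, and the log2 fold change of 0.83 (SE 0.23) was 0.56 without mouse 11 and 1.03 without mice 9 and 10. Its total RNA log2 fold change was 0.07 (SE 0.15, adjusted p = 0.94). It changed sign with library totals (-0.07), where the median over all genes was -0.14. Hmgb2 (ENSMUSG00000054717, chr8:57511843-57515999), also a proliferation-linked gene, was the member with the fewest counts. Its polysome level was 6.37 to 12.8 CPM with GFP LNA and 13.6 to 31.1 CPM with SNORA73 LNA. On the log2 scale the fold change was 0.96 (SE 0.25), and 0.29 in total RNA (SE 0.14, adjusted p = 0.60), where it was 0.19 without mouse 11.

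Nap1l1 (ENSMUSG00000058799, chr10:111472882-111498150), a chaperone of histones H2A and H2B and the gene with the TOP-like start printed above, showed the smallest polysome value after Npm1. With GFP LNA its polysome level was 97.1, 76.2, 65.3, 82.7 and 65.8 CPM, and with SNORA73 LNA 94.4, 76.8, 107, 174 and 78.0 CPM. Mice 10 and 11 exceeded the highest control and the other 3 treated mice did not. The log2 fold change was 0.45 (SE 0.22) and fell to 0.22 without mouse 11. In total RNA it was 0.01 (SE 0.15, adjusted p = 0.99), with -0.07 without mice 9 and 10.

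Across the members in polysome RNA, Anp32b was the single one called, where 2 of 13060 genes were called (0.0153%). The median over members was 0.98 and that over all genes -0.01. Without mice 9 and 10 Anp32a and Anp32b were called, with 31 of 12825 genes called (0.242%). Leaving out single mice gave 0 to 3 members called, 0 when GFP LNA mouse 1, 2, 3 or 8 or SNORA73 LNA mouse 4 was left out and 3 without mouse 12. DESeq2 on the 10 polysome libraries called 8 members and 281 genes, and a joint fit of all 20 libraries called 8 members and 317 of 13795 genes, whereas library totals in place of TMM called 0 members and 0 genes, with 2265 genes at an unadjusted p under 0.05. The SNORA73 LNA group lay above the GFP LNA group without overlap for 7 members, where 2.11% of all genes tested did so, and for 8 members (4.85% of genes) without mice 9 and 10. Since the members were taken because of this contrast, these counts carry no weight as evidence about the group.

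**Figure D2:**
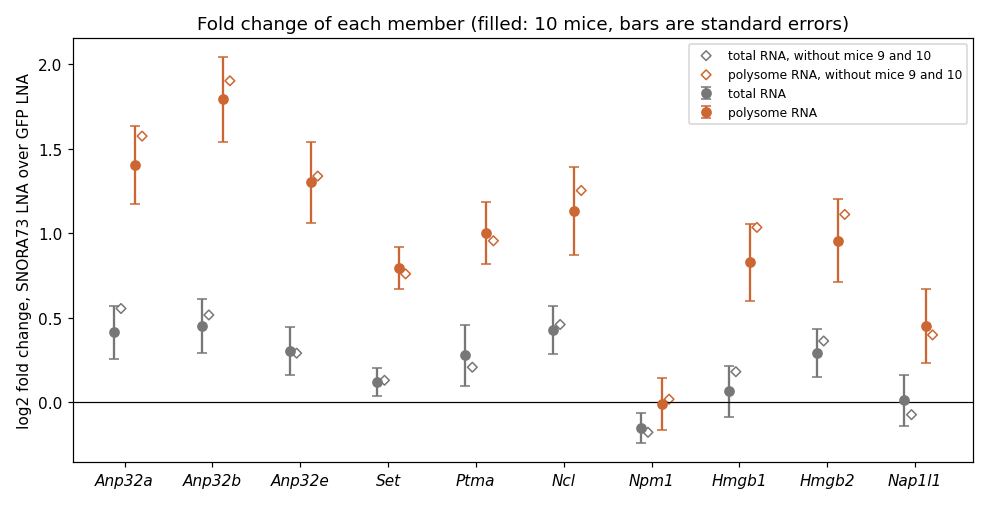
Log2 fold change of SNORA73 LNA over GFP LNA (y axis) for each member (x axis) in total RNA (grey) and polysome RNA (orange). Filled points are fits over 10 mice with standard errors, open diamonds are fits without mice 9 and 10. Polysome values run from -0.01 for Npm1 to 1.79 for Anp32b and exceed the total RNA value for every member.

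The design also asks whether polysome RNA moved beyond total RNA. Taking each mouse's own pair of libraries, scaled together, the log2 ratio of polysome to total Anp32b was 0.51, 0.03, 0.12, -0.33 and 0.06 in GFP LNA mice 1, 2, 3, 8 and 9. In SNORA73 LNA mice 4, 6, 10, 11 and 12 it was 1.03, 1.15, 1.19, 1.83 and 1.59. Control ratios thus lay on both sides of 0, from -0.33 to 0.51. Each treated mouse held over 2 times as much in polysome RNA as in total RNA, on this relative scale. For Set the ratio was -0.17, -0.37, -0.33, -0.43 and -0.58 with GFP LNA, and 0.38, 0.43, 0.30, 0.44 and -0.10 with SNORA73 LNA, so every control was below 0 and mouse 12 alone of the treated mice was. Ratios of the SNORA73 LNA group lay above those of the GFP LNA group without overlap for 5 members, Anp32a, Anp32b, Set, Ncl and Hmgb1, beside 0.819% of all genes tested.

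As an interaction of RNA and LNA, the difference between the 2 fold changes was 1.34 for Anp32b (SE 0.31), 1.0 for Anp32e (SE 0.29), 0.99 for Anp32a (SE 0.29) and 0.68 for Set (SE 0.14). The other members ranged from 0.15 for Npm1 (SE 0.18) to 0.76 for Hmgb1 (SE 0.29). No member was called in this fit, in which 1 of 13795 genes was called (0.00725%) and 401 had an unadjusted p under 0.05. With the mouse as a block, which uses the pairing of the 2 libraries of a mouse, Anp32b was the single gene called (0.00725%). That call was lost without mice 9 and 10, where the blocked value was 1.33 and 0 of 13579 genes were called, with 952 at an unadjusted p under 0.05. DESeq2 called 2 members and 7 of 13795 genes. These values use the polysome libraries that led to the choice of genes and are given as a description.

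**Figure D3:**
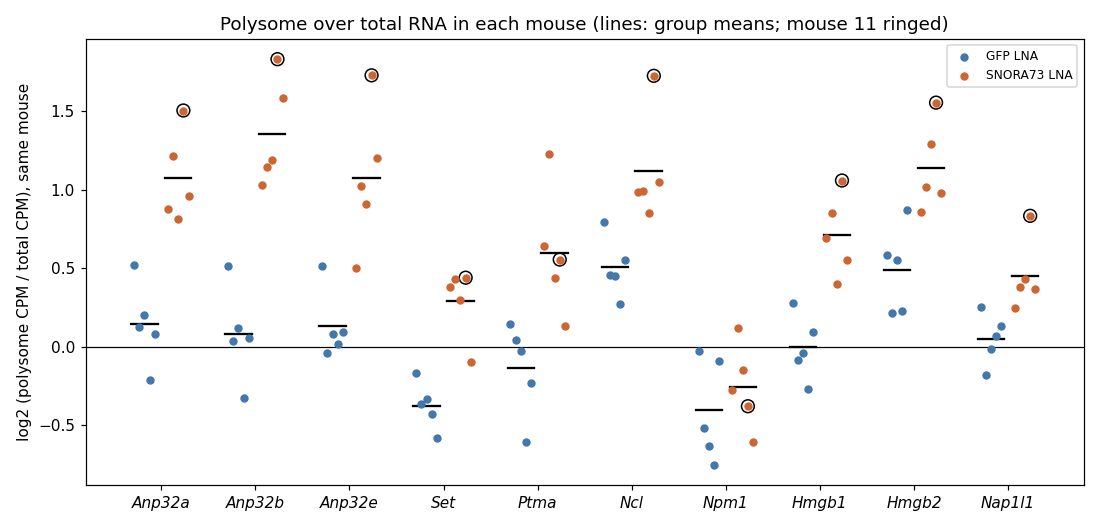
Log2 ratio of polysome CPM to total CPM in each mouse (y axis) for each member (x axis), with GFP LNA in blue and SNORA73 LNA in orange. Lines are means of 5 mice and mouse 11 is ringed. Control ratios of the Anp32 genes scatter from -0.33 to 0.52 and treated ratios from 0.50 to 1.83, while Npm1 covers -0.76 to 0.12 over both groups.

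Within the control livers, polysome and total RNA differed for 5909 of 13795 genes (42.8%). Of the 8 members tested, those other than Anp32b and Set, 2 were called. Npm1 was lower in polysome RNA, by -0.39 on the log2 scale (SE 0.13, adjusted p = 0.018), with ratios below 0 in 5 of 5 mice. This call was lost without GFP LNA mouse 2 (adjusted p = 0.054), 3 (adjusted p = 0.053) or 8 (adjusted p = 0.11). Hmgb2 was higher by 0.53 (SE 0.21, adjusted p = 0.049, higher in 5 of 5 mice), a call that was lost without mice 9 and 10 (0.40, adjusted p = 0.20), where 39.1% of genes were called, and kept there with the mouse as a block (0.38, adjusted p = 0.029). It was also lost without any single GFP LNA mouse or without SNORA73 LNA mouse 4, 10 or 12, with adjusted p up to 0.17. Several other tests, filters and scalings lowered the members called from 3, Set included, to 2, as given under processing below. Set, described without a test, was at -0.38 (SE 0.10). Ncl stood at 0.51 (SE 0.22, adjusted p = 0.069), was called with the mouse as a block (adjusted p = 0.0012 over 10 mice, 56.1% of genes called, and adjusted p = 0.0096 over 8), and was also called without mouse 11 (adjusted p = 0.0017), which shares the fit's estimate of spread. Anp32a (0.14), Anp32e (0.14), Ptma (-0.13), Hmgb1 (0.00) and Nap1l1 (0.06) did not pass the test, with SE of 0.19 to 0.21. The GFP LNA polysome libraries are also the controls of the contrast behind the choice of genes, so these tests are not independent of that choice.

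Within the SNORA73 LNA livers, polysome against total RNA uses the polysome libraries in which the genes stood out, and its values are a description. The log2 difference was 1.42 for Anp32b (SE 0.22), 1.13 for Anp32a (SE 0.21) and 1.14 for Anp32e (SE 0.21), with a ratio above 0 in 5 of 5 mice for each. It was 1.21 for Ncl (SE 0.22), 1.19 for Hmgb2 (SE 0.21), 0.76 for Hmgb1 (SE 0.21), 0.59 for Ptma (SE 0.19) and 0.50 for Nap1l1 (SE 0.20), again above 0 in 5 of 5 mice, and 0.30 for Set (SE 0.10), above 0 in 4 of 5. Npm1 was the single member below 0, at -0.25 (SE 0.13), with 1 of 5 mice above 0. The fit called 8 members, all higher and all but Npm1 and Nap1l1, beside 38.0% of all genes called and 19.7% called higher. Without mice 9 and 10 it also called 8, beside 36.2% of genes, and with the mouse as a block 9, Nap1l1 added, beside 51.1%. Leaving out single mice gave 6 to 8. Nothing is read from these counts, and a call in one LNA group and none in the other does not show a difference, for which the interaction above is the measure.

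Other genes whose pattern was most like Anp32b were ranked by Pearson correlation of log2 CPM, centred within total and within polysome RNA, over the 20 libraries and 8237 genes. The points share their libraries, 2 from each mouse, and include the polysome values behind the choice of genes, so members among the leading genes support nothing. The highest were Zmat2 (0.97), Anp32e (0.96), Ncl (0.95), Malat1 (0.95) and Ythdc1 (0.95). For Set they were Wnk1 (0.92), Gimap4 (0.91), Strbp (0.91), Fam167b (0.89) and Ptma (0.89). Ythdc1 encodes a nuclear reader of m6A and Wnk1 a kinase of ion transport.

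Malat1 is a long noncoding RNA that stays in the nucleus and is not translated, and it was present in the polysome libraries. In polysome RNA it measured 116, 89.3, 90.6, 89.2 and 145 CPM in GFP LNA mice 1, 2, 3, 8 and 9, and 434, 216, 257, 1403 and 279 CPM in SNORA73 LNA mice 4, 6, 10, 11 and 12. Groups did not overlap, mouse 11 was again the highest, and the log2 fold change was 2.29 (SE 0.46), larger than that of any member. In total RNA it was 0.62 (SE 0.22), with 386 to 556 CPM against 396 to 1019 CPM. A second nuclear RNA, Neat1, chosen after its values were seen, was at -0.12 in polysome RNA (SE 0.23) and at -0.68 in total RNA (SE 0.27). Its log2 ratio of polysome to total RNA ran from -1.59 to -1.03 with GFP LNA and from -0.98 to -0.51 with SNORA73 LNA, so these groups did not overlap, and the interaction was 0.56 (SE 0.38). That of Malat1 ran from -2.47 to -1.75 and from -1.41 to 0.41, also without overlap. The part of nuclear RNA in the polysome values of the members was not tested.

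**Figure D4:**
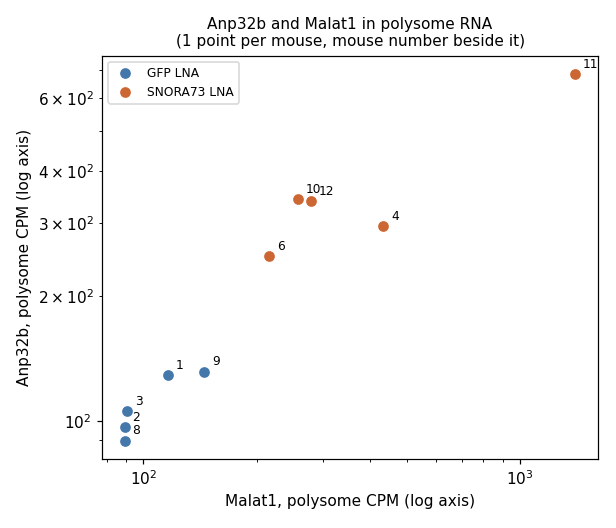
Polysome CPM of Anp32b (y axis, log scale) against that of the nuclear RNA Malat1 (x axis, log scale), 1 point per mouse with its number, GFP LNA in blue and SNORA73 LNA in orange. Controls lie at 89.2 to 145 CPM of Malat1 and 89.8 to 132 CPM of Anp32b, treated mice at 216 to 1403 and 250 to 685, with mouse 11 at the top of both.

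Partners of the members were read from lists of related genes. The SET complex list (6 genes) had 0 called in total RNA, and its median log2 fold change was 0.10 in total and 0.38 in polysome RNA, beside 0.01 and -0.01 over all genes. Apart from the members Anp32a, Hmgb2 and Set, its genes Apex1, Nme1 and Trex1 were at -0.04, -0.07 and -0.19 in polysome RNA (SE 0.14, 0.17 and 0.17), with a median of -0.07 there and -0.03 in total RNA. PP2A subunits and regulators (19 genes) had 0 called and medians of -0.01 and -0.05. The lowest unadjusted p among these genes of the phosphatase that Anp32a and Set inhibit was that of the regulatory subunit Ppp2r5e (0.25, SE 0.13, adjusted p = 0.64). Other histone chaperones (22 tested) had 0 called over 10 mice and medians of 0.06 and 0.22. In that list Supt6, a chaperone of transcription elongation, was at 0.76 in total RNA (SE 0.16, adjusted p = 0.21) and was called without mice 9 and 10 (0.84, adjusted p = 0.033), while Nasp, a chaperone of histone H3, was at 0.43 (SE 0.12, adjusted p = 0.36), and Rbbp7, a histone-binding subunit of several chromatin complexes, at -0.33 (SE 0.11, adjusted p = 0.38).

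Nucleolar partners of Ncl and Npm1 (16 genes, these 2 among them) had 0 called in total RNA. There 13 lay above 0, beside 51.7% of all genes, and in polysome RNA 10 did, beside 48.6% of all genes. The medians were 0.19 in total and 0.30 in polysome RNA. Without Ncl and Npm1, 12 of 14 lay above 0 in total and 9 in polysome RNA, with medians again of 0.19 and 0.30. The ribosome assembly factor Pes1 (0.37, SE 0.08, adjusted p = 0.25) and Polr1a, the large subunit of RNA polymerase I (0.47, SE 0.15, adjusted p = 0.38), had the lowest unadjusted p in total RNA. HMG box, HMGN and HMGA genes (10 tested) had 0 called, with medians of 0.07 and 0.32, or 0.02 and 0.20 without the members Hmgb1 and Hmgb2. Genes of H2A.Z and its exchange (11 tested), the substrate of Anp32e, had 0 called and medians of 0.17 and -0.06, with Anp32e itself in the list. HuR, CRM1 and export genes (7 tested) had 0 called and medians of 0.09 and -0.02.

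Markers of liver cell types were read beside these values. Hepatocyte markers (8 of 8 detected) summed to similar ranges in both groups and had 0 called. Sinusoidal endothelial markers (7 of 7 detected) had median log2 fold changes of 0.26 in total and 0.22 in polysome RNA. They summed to 126 to 153.9 CPM with GFP LNA and 154.4 to 173 CPM with SNORA73 LNA in total RNA. In polysome RNA the sums were 99.2 to 114 against 119 to 139 CPM. On this TMM scale the groups did not overlap in either RNA, in total RNA only just. Sums on other scales were not computed. Of these 7, Stab2, a scavenger receptor of liver sinusoids, was called in total RNA (1.06, SE 0.15, adjusted p = 0.0497). Proliferation genes (9 tested) had 0 called and a median of -0.25 in total RNA and -0.48 in polysome RNA, where Hmgb2 was above 0. Kupffer, stellate, lymphocyte, neutrophil, erythroid and cholangiocyte lists had 0 called in total RNA, with medians of -0.08, -0.10, -0.09, 0.20, -0.17 and -0.29. The part of the endothelial share in the members' values was not tested.

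Copies of these genes elsewhere in the genome can share their reads. Named pseudogene copies in the table held at most 0.570% of the counts of Hmgb1 (14 copies) and at most 0.0803% of those of Anp32b (1 copy), and summing them with their member left the calls as they were. Copies with no name of this kind are not covered.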

How the data were processed

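Each of 20 columns (1 total and 1 polysome library from each of 10 mice, 5 per LNA group) was tied to its mouse by the labels, and 0 columns were left over. As deposited, the table holds estimated counts for each gene, which the authors made by quality filtering with fastp (Phred 15 or more), removing rRNA reads with bowtie, quantifying polyadenylated, stranded libraries against Ensembl mouse transcripts (GRCm38 per the labels) with kallisto and summing to genes with tximport. Such estimates share reads among near-identical copies. Of the values, 85.7% were whole, and all were rounded. Ensembl IDs of 51903 of 53028 genes matched a symbol, and genes without one held at most 2.99% of a library's counts.

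The main test was edgeR 4.0.16 (quasi-likelihood, TMM, R 4.3.3) on genes with CPM above 0.5 in at least 4 libraries of the fit, with Benjamini-Hochberg adjustment over all genes tested and calls at an FDR under 0.05. The LNA contrasts used 10 libraries each, and those between RNAs used all 20 in 4 groups. DESeq2 1.42.0 and limma-voom 3.58.1, the study's test, were alternatives. Tested on simulated counts, the fit recovered 69.0% of 200 genes changed by a log2 of 1 in total RNA with 3 false calls. In polysome RNA it recovered 64.1% of 198 with 9 false calls. Between the RNAs with GFP LNA it recovered 72.5% of 200 with 9 false calls. Simulated libraries were drawn independently, with no pairing by mouse and no outlying mouse, so these rates need not hold for the real libraries. Replicates are separate mice, and the 2 libraries of a mouse come from the same liver. Their deviations from the group means correlated for every mouse (r from 0.14 to 0.70), though mouse 6 correlated more with another polysome library (0.33). The main fit had no block. The study's methods name none, but they also describe no contrast between total and polysome RNA. The fit with the mouse as a block is given beside a result where it changes a call. Depth sets counting error only, and the spread between mice is the error used.

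The members, the lists of related genes and markers and the mice left out as a pair were chosen with earlier results of these data known. Named genes are the members, up to 3 genes per list with the lowest unadjusted p in total RNA or those called there (some are given only in counts), and the 5 genes most like Anp32b and Set at a mean CPM of at least 5. Lists are described by counts and medians. Protein sequences were not used here, so a list drawn by acidic tract was not made, and levels are not compared between genes because transcript lengths were not used here.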

Additional observations from a re-analysis of the deposited data

Results flagged for a closer look

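Within groups of 5 mice, 6 of 40 groups of a member had 1 library that stood far from the others by Dixon's test at the 95% level, where chance gives about 1 in 20. The 40 groups are not independent, since members share the same libraries and were chosen from polysome RNA, so nothing is read from this rate. The share over all genes was not computed. All 6 were in polysome RNA of SNORA73 LNA mice. In 5 of them mouse 11 was the high library, with 685 CPM for Anp32b, 139 CPM for Anp32e, 964 CPM for Ncl, 872 CPM for Hmgb1 and 31.1 CPM for Hmgb2. Leaving out mouse 11 left each of these above 0 on the log2 scale, at 1.49, 1.03, 0.77, 0.56 and 0.71. The sixth was Set, in which mouse 12 was low at 142 CPM, still above the highest control library.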

How the results depend on the processing

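Members called in polysome RNA (1 over 10 mice) moved most with the processing. The count was 5 with CPM above 1 in every library (31 of 10222 genes called), 6 without a filter (72 of 25915), 8 with DESeq2 (281 of 13060), 8 in a joint fit of 20 libraries (317 of 13795), 0 with library totals (0 of 13060), 2 without mice 9 and 10 (31 of 12825) and 2 with limma-voom on those 8 mice (28 of 12825), and leaving out each mouse gave 0 to 3 (0 to 17 genes). The interaction had 0 members called, 2 with DESeq2 and 1 with the replicate block (0 with the block over 8 mice), which pairs the libraries of a mouse. For polysome against total RNA with GFP LNA (3 members, Set among them), leaving out mice gave 1 to 4, with 1 when GFP LNA mouse 2, 3 or 8 was left out. The count there was 2 with limma-voom (6162 of 13795 genes called), DESeq2 size factors in edgeR (5898 of 13795) and no mitochondrial genes (5887 of 13980). It was also 2 without a filter (5301 of 29675) and with CPM above 1 in every library (5035 of 10029). Library totals gave 4 (5836 of 13795). In total RNA no alternative called a member.

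Signs turned for members near 0. With library totals, total RNA gave -0.027 for Set, -0.072 for Hmgb1 and -0.13 for Nap1l1, where the median over all genes was -0.14. Nap1l1 was at -0.011 without a filter, -0.072 without mice 9 and 10 and -0.095 with limma-voom without those mice. Leaving out single mice gave -0.087 to 0.14 for Hmgb1 and -0.10 to 0.087 for Nap1l1. Polysome against total RNA with GFP LNA turned for Hmgb1, to -0.066 with CPM above 1, -0.019 with DESeq2, -0.019 with its size factors in edgeR, -0.020 without mitochondrial genes, -0.011 without a filter, -0.00529 with limma-voom, -0.052 with limma-voom without mice 9 and 10, -0.048 without those mice, and, with the replicate block, -0.0039 over 10 and -0.052 over 8 mice. Single mice left out gave -0.067 to 0.069 for Hmgb1 and -0.0072 to 0.098 for Nap1l1, which was at -0.012 with CPM above 1. Of the values given without a test, Npm1 in polysome RNA ran from -0.099 to 0.093 and Anp32b in polysome against total RNA with GFP LNA from -0.025 to 0.18 over single mice left out. The cause was not tested. Apart from the calls named above and in the report, the block changed no call of a member. Fits on 8 mice by limma-voom or with the block, and the sum with named copies, were chosen after seeing the data. The planned list by acidic tract in the protein sequence was not run.

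A member that did not pass is not shown to be unchanged. Each member had at least 138 counts in every library, the fewest being those of Hmgb2, and depth was not tested as a limit.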
